A study of Mus musculus with 6 samples.

Results

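The collagen genes of mouse skin fibroblasts (MSFs) were compared between samples labelled TAM and samples labelled EtOH. Collagen genes were taken as the rows of the deposited table whose gene name is Col, a number, a and a number, which gave 42 of 22162 genes, and 29 of them were high enough to be tested among 11877 genes. Emid2, listed under the older name of the type XXVI chain, has no such name and was listed at 0 in all 6 samples.

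The study asked how senescent stromal cells act on their surroundings, and sequenced poly(A) RNA of 3 MSF samples treated with 10 µM tamoxifen (TAM) for 48 h and 3 treated with the ethanol vehicle (EtOH). The MSFs were a line from the dorsal skin of 1 female FASST mouse on the FVB/N strain, grown at 3% oxygen. Both groups carried the same alleles, a tamoxifen-activated Cre (CreERT2) driven by regulatory sequence of the pro-alpha 2(I) collagen gene, Col1a2, and a p27Kip1-IRES-GFP cassette in ROSA26 behind a lox-flanked stop. Which cells of the line recombined was not measured here, and the gene whose sequence drives this Cre is itself one of the 42 collagen genes. The age of that mouse is not given in the sources used here. The labels do not say that the 3 samples of a group were separate cultures or animals, so p-values measure the spread between these samples, which may be technical.

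Collagens are the main structural proteins of the extracellular matrix, and skin fibroblasts are their chief source in the dermis. Each collagen molecule is a trimer of alpha chains, which wind into a triple helix wherever glycine opens each of a row of Gly-X-Y triplets. Fibrillar collagens have long unbroken helices that align into fibrils, type IV collagen forms the sheet of basement membranes, type VI forms beaded filaments around cells, and type VII anchors the epidermal basement membrane to the dermis. FACIT collagens sit on fibril surfaces, type VIII and X collagens form hexagonal lattices, and the multiplexins XV and XVIII belong to basement membrane zones and carry large sugar chains. Newly made chains are hydroxylated and folded in the endoplasmic reticulum, trimmed after secretion, crosslinked by lysyl oxidases and broken down by matrix metalloproteinases.

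The glycine repeat that defines the family can be read in the coding sequence as a row of codon triplets that each open with GGN, where N is any base. The end of the longest such run is printed here for a fibrillar and a basement membrane chain, because these classes differ in how long the repeat stays unbroken and also in how their RNA differed between the groups. Capitals mark the GGN codons that belong to the run, and the lower-case tail is where it ends. The stretches come from coding exons of the NCBIM37 (mm9) annotation: codons 1167 to 1191 of Col1a1 (chr11:94797538-94814356, + strand) and 148 to 172 of Col4a1 (chr8:11198423-11312826, - strand), each read 5′ to 3′. The reference sequence was used, and nothing was read from the FVB/N samples.
Col1a1: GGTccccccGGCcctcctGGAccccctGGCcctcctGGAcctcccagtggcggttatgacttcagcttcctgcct
Col4a1: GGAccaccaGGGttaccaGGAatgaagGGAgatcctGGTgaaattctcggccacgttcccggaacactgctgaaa
The longest unbroken run was 338 repeats in Col1a1, 339 in Col1a2 and 344 in Col3a1, and 216 and 217 in the fibrillar chains Col24a1 and Col27a1. It was 40 repeats in Col4a1 and 66 in Col4a2, whose helices are interrupted many times, 87 in Col6a1 and in Col6a2, 75 in Col7a1 and 30 in both multiplexins, Col15a1 and Col18a1. No 50-base stretch of the 42 annotated collagen transcripts used was shared between 2 of these genes, so reads at least that long could not match 2 of these transcripts exactly. No single other gene shared more than 1.66% of the exon bases of a collagen gene, apart from Col9a3 (6.07%, shared with Tcfl5 on the other strand).

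The deposited normalized counts summed to between 14952367 and 17314953 per sample, and read totals were not used. A level of 1 c.p.m., a count scaled to the size of the library, corresponded to 16.2 normalized counts. Cdkn1b, the gene of p27Kip1, had 1427, 3074 and 1853 normalized counts in the EtOH samples and 1699, 1519.85 and 1629.97 in the TAM samples, so the groups overlapped. The paper reports GFP expression, growth arrest and more senescence-associated β-galactosidase staining in tamoxifen-treated MSFs, from assays other than sequencing. From its RNA-seq of MSFs it also reports higher IL-6, CXCL5, CXCL1, CCL2 and CCL5 in senescent cells, followed up by quantitative PCR. Those genes were not examined here. In these libraries Cdkn1b does not separate the samples the way their labels do. The sources used here do not say whether reads of the cassette would count on this gene. Groups are therefore named by label throughout, and every direction below is that of the samples labelled TAM against those labelled EtOH. The 10 fibroblast markers summed to 580586 to 809740 normalized counts in EtOH samples and 610394 to 746675 in TAM samples. Fn1 was the largest part of each sum (484846, 551499 and 282129 in EtOH and 467273, 593949 and 451544 in TAM samples). The sums hide differences of single markers. Every TAM sample lay below every EtOH sample in Dcn, Lum and Fbn1 and above in Thy1, beside 11.4% and 9.19% of all tested genes. Fbn1 had 101242, 57892 and 94024 in EtOH and 37104, 38267 and 44200 in TAM samples. Of the markers of other cell types, 6 of 8 keratinocyte, 4 of 6 endothelial, 5 of 6 chondrocyte and 3 of 4 Schwann cell genes were under 1 c.p.m. in every sample. This held for fewer of the macrophage (2 of 6), smooth muscle and pericyte (1 of 6) and melanocyte (1 of 4) genes, with Cd68 at up to 352, Lyz2 at up to 159 and Pmel at up to 199 normalized counts.

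Col15a1 fell 59.2-fold and was the only collagen gene with an adjusted p under 0.05. Thus 1 of 29 tested collagen genes was called lower, where 0.0758% of all 11877 tested genes were called lower (9 genes), and 0 were called higher, where 0.168% of all genes were (20 genes). Same-numbered samples of both labels deviated together (correlations of 0.24, 0.29 and 0.42). This is not independent evidence that they were paired, and the labels do not state a pairing. A fit with the replicate number as a block called 3 collagen genes higher, Col4a1, Col4a2 and Col7a1, and 3 lower, Col15a1, Col18a1 and Col5a3. In that fit 1.00% of all tested genes were called higher (119 genes) and 0.615% lower (73 genes). At an unadjusted p under 0.05, 7 collagen genes were higher and 7 lower, beside 6.67% and 6.70% of all genes. By sign alone, 13 of the 29 were higher and 16 lower, with a median log2 fold change of -0.27 beside -0.03 over all tested genes. Without the filter on low values this median turned to 0.43, beside 0.03 over the 17333 genes then tested. The 12 untested collagen genes above 0 in any sample all had positive log2 fold changes. In the whole table, 15634 to 15710 genes were above 0 in the TAM samples and 14811 to 14918 in the EtOH samples. Low genes beyond the collagens were thus also listed above 0 more often in TAM samples. In 6 tested collagen genes every TAM sample lay above every EtOH sample and in 10 every TAM sample lay below, beside 9.19% and 11.4% of all genes.

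**Figure D1:**
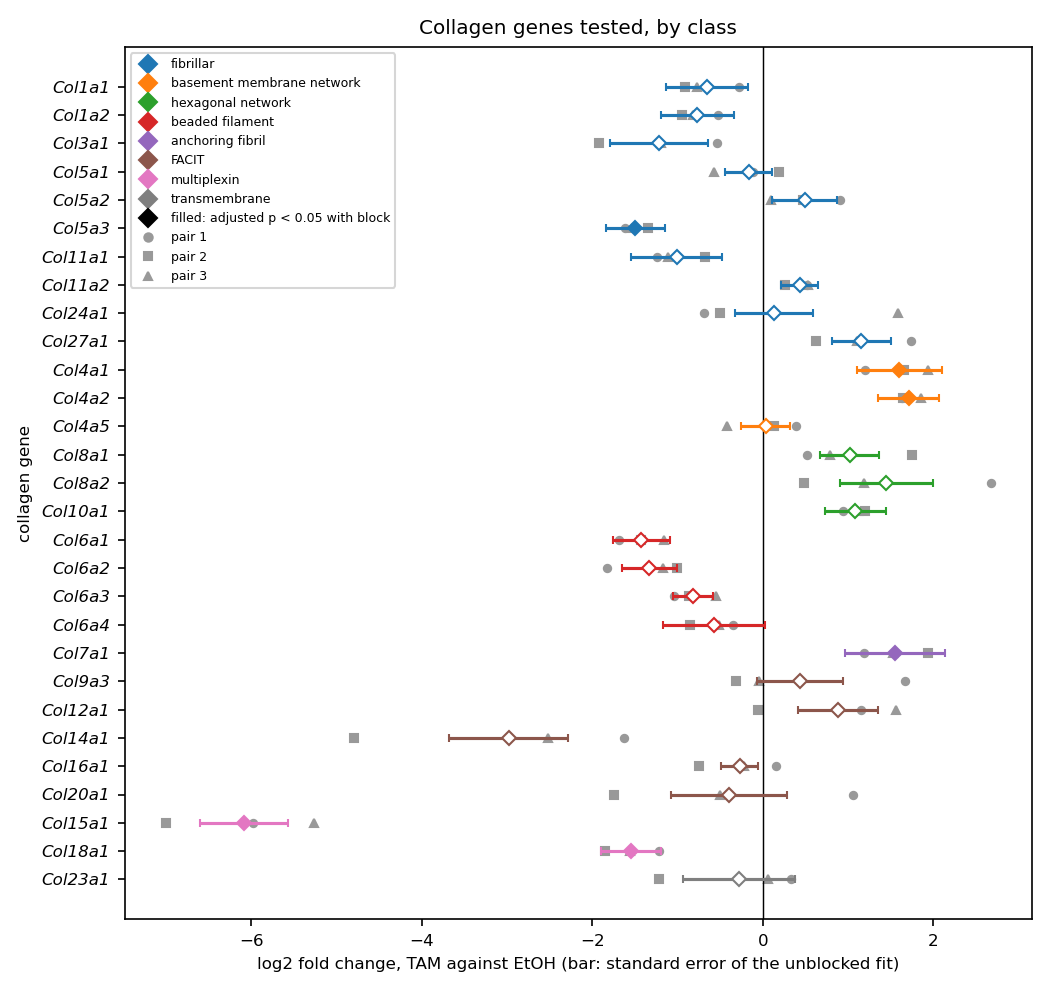
Log2 fold change of each of the 29 tested collagen genes, TAM against EtOH, grouped by class. Diamonds are the fitted values with the standard error of the unblocked fit as bars, filled where the adjusted p was under 0.05 with the replicate block, and grey symbols are the differences within the 3 same-numbered pairs. Col15a1 lies far to the left at -6.08, and Col4a1, Col4a2 and Col7a1 lie right of 1.5.

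Collagen RNA took a large share of these libraries. The 42 genes together held 10.9%, 10.4% and 11.7% of the normalized counts of the EtOH samples and 10.2%, 6.14% and 7.91% of those of the TAM samples. All 3 TAM samples were below all 3 EtOH samples. The fibrillar class set this level, with 8.997%, 8.33% and 9.88% in EtOH samples and 7.82%, 4.37% and 5.81% in TAM samples. Its mean sum was 1.64-fold lower in TAM samples, and that of the beaded filament class was 2.36-fold lower and that of the multiplexins 5.55-fold lower. Mean sums of the other classes lay the other way: the basement membrane class was 2.91-fold, the hexagonal network class 2.15-fold, the anchoring fibril class 3.25-fold and the FACIT class 1.75-fold higher in TAM samples. FACIT sums overlapped between the groups, as did the transmembrane sums, which differed 1.05-fold. Single chains set several of these sums. Col12a1 had a mean of 103615 of 110328 FACIT counts in EtOH and 187561 of 192645 in TAM samples. Of 5 tested FACIT genes, 2 were higher and 3 lower. Col8a1 had a mean of 1886 of 1969 hexagonal network counts in EtOH and 4039 of 4238 in TAM samples. The anchoring fibril class has 1 gene. In a bulk sample, fewer cells making a collagen and less RNA per cell cannot be told apart.

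**Figure D2:**
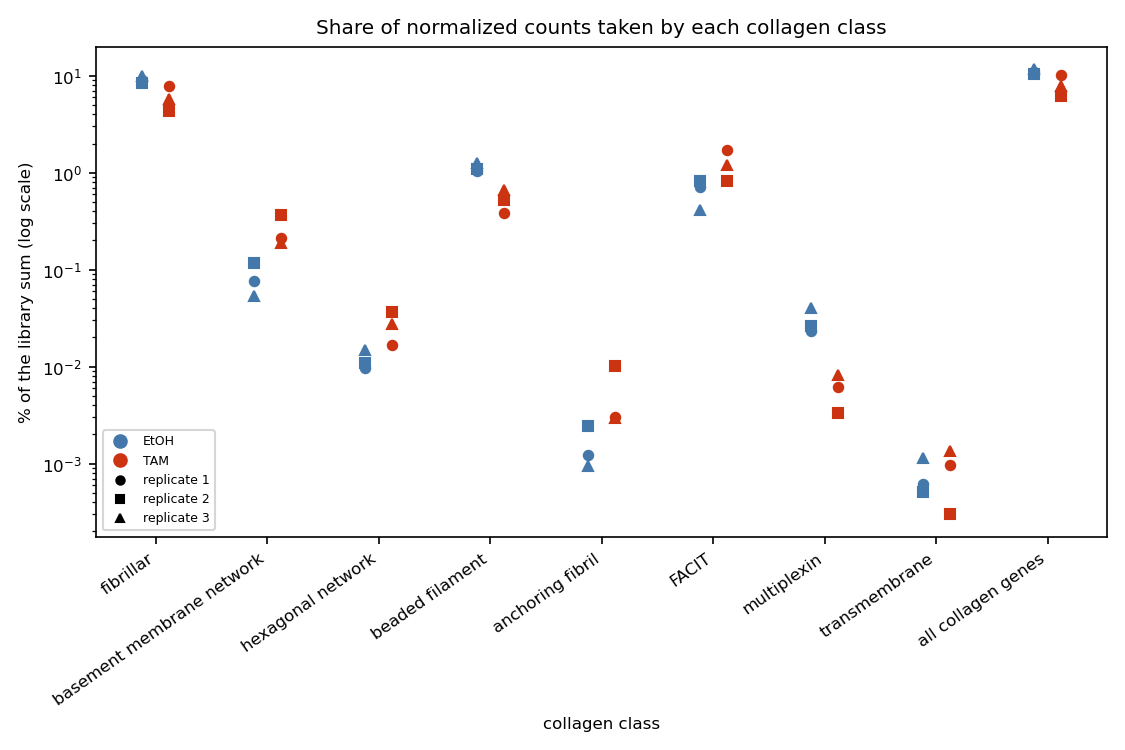
Share of the library sum of normalized counts taken by each collagen class, in percent on a log axis, with 1 symbol per sample (shape: replicate number; colour: label). The fibrillar and beaded filament shares of the TAM samples lie below those of the EtOH samples, the basement membrane shares lie above, and the FACIT shares overlap.

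Of the classes, the multiplexins showed the widest gap between the groups. Col15a1 (chr4, type XV chain) had 1777, 2702 and 3199 normalized counts in the EtOH samples and 27.2, 20.1 and 82.4 in the TAM samples. Every TAM sample was below every EtOH sample by more than an order of magnitude, and within the same-numbered pairs the log2 difference was -5.98, -7.00 and -5.26. The fitted log2 fold change was -6.08 ± 0.51 (SE, adjusted p = 0.0175), and with the block its SE was 0.35 and its adjusted p 0.0147. Col15a1 made up 0.0971% to 0.169% of all collagen counts in EtOH samples and 0.00174% to 0.00697% in TAM samples, and dropped in rank by level per kb of coding transcript from position 14 to position 28 of the 42. With 1 sample left out, the adjusted p was 0.00526 without TAM replicate 3 and between 0.0510 and 0.121 without any other sample, while the log2 fold change stayed between -6.67 and -5.68.

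Col18a1 (chr10), whose C-terminal fragment is endostatin, had 2146, 1884 and 3389.55 normalized counts in EtOH samples and 921, 519 and 1151 in TAM samples. The groups did not overlap. The log2 fold change was -1.54 ± 0.35 (SE, adjusted p = 0.152), and Col18a1 fell in the fit with the block (SE 0.19, adjusted p = 0.0372), but was not called when pair 3 was left out (log2 fold change -1.54, adjusted p = 0.144). Both multiplexins are also made by vascular cells, so endothelial markers were read beside them. The summed level of 6 endothelial markers was 241, 85.9 and 132 normalized counts in EtOH samples and 17.4, 21.7 and 35.9 in TAM samples. Kdr, a VEGF receptor, made up most of it in EtOH samples, with 205, 68.7 and 116 in EtOH and 4.84, 7.53 and 14 in TAM samples. It fell in the blocked fit (log2 fold change -3.71 ± 0.54 SE, adjusted p = 0.0608, and 0.0488 as adjusted p with the block). Kdr was under 1 c.p.m. in every TAM sample, so it was tested only because the EtOH samples passed the filter on low values. Tek, the angiopoietin receptor, had 31.3, 7.6 and 12.4 in EtOH and 8.05, 1.66 and 8.51 in TAM samples and was not tested. The other markers were under 1 c.p.m. or not tested and did not share the direction of Kdr. Pecam1 had 4.65, 4.76 and 3.49 normalized counts in EtOH and 2.83, 6.69 and 11.3 in TAM samples. Erg was listed at 0 in every EtOH sample and at 1.64, 1.66 and 0.74 in TAM samples. Cdh5 had means of 1.60 in EtOH and 1.57 in TAM samples, and Cdh5 and Emcn did not exceed 4.80. The part of these markers in the Col15a1 and Col18a1 results was not tested.

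**Figure D3:**
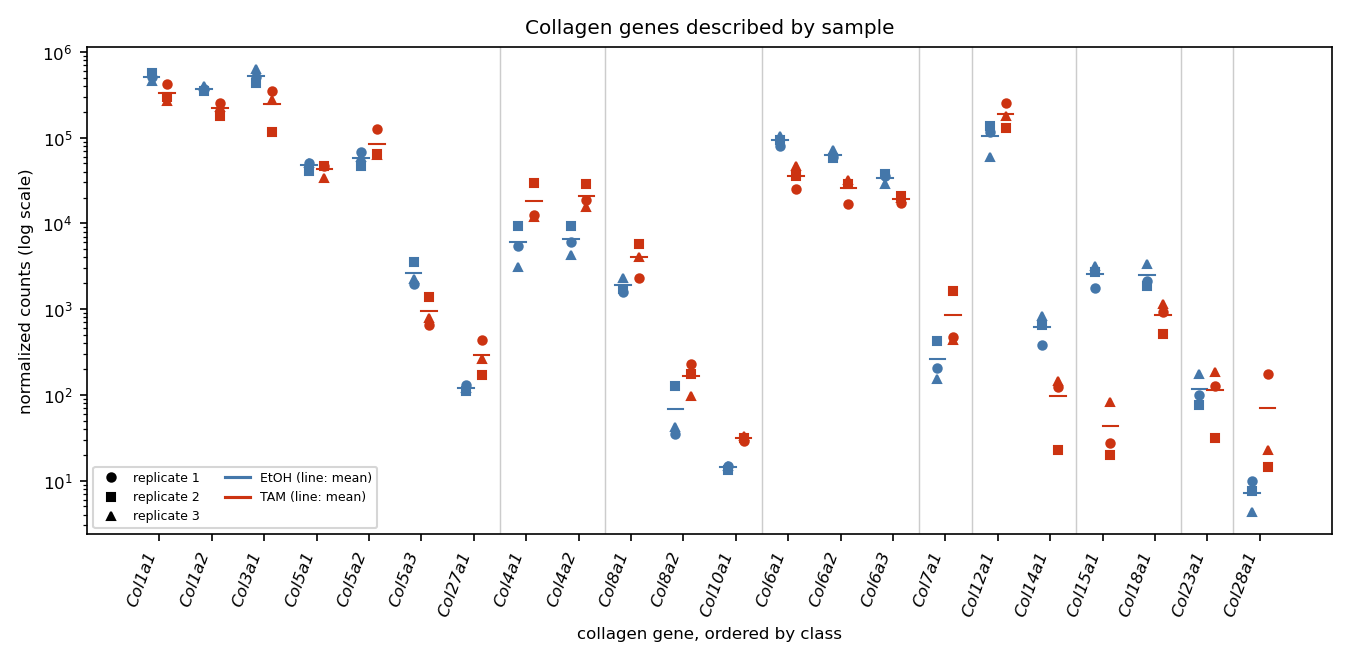
Normalized counts of the collagen genes described by sample, on a log axis and ordered by class, with 1 symbol per sample (shape: replicate number; colour: label) and a line at each group mean. Col15a1 lies at 1777 to 3199 normalized counts in EtOH samples and at 20.1 to 82.4 in TAM samples, whereas Col1a1 lies at 265664 to 568528 across all 6 samples.

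The promoter windows of Col15a1 and of the type IV pair are printed because these genes are among those called, and that of Col1a2 because sequence of this gene drives the Cre. Each window runs 5′ to 3′ on the strand of its gene, from 250 bases before to 50 bases after the RefSeq start, in build GRCm38.p6: chr4:47207762-47208061 (+ strand) for Col15a1, chr8:11312777-11313076 (- strand) for Col4a1, chr8:11312555-11312854 (+ strand) for Col4a2 and chr6:4505368-4505667 (+ strand) for Col1a2. Capitals mark CCAAT (the CCAAT box) and GGGCGG (the GC box), searched on both strands together with TATAAA (the TATA box) and TGANTCA (the AP-1 site), and no motif contains another.
Col15a1: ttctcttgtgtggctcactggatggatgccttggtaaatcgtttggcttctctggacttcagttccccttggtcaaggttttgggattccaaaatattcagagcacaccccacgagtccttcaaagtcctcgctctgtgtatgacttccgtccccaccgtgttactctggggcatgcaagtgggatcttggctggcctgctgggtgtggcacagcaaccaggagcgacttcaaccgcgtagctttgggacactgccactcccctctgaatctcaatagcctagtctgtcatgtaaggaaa
Col4a1: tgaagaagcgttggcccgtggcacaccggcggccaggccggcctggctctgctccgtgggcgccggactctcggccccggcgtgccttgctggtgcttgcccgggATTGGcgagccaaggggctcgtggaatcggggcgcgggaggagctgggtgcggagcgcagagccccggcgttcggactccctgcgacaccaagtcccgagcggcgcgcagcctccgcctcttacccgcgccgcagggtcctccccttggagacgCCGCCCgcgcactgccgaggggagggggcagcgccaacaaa
Col4a2: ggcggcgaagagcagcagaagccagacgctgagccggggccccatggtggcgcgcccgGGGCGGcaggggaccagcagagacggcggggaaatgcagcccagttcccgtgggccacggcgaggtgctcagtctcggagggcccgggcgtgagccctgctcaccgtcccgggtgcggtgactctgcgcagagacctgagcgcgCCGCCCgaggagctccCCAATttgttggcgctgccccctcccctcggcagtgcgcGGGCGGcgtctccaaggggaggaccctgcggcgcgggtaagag
Col1a2: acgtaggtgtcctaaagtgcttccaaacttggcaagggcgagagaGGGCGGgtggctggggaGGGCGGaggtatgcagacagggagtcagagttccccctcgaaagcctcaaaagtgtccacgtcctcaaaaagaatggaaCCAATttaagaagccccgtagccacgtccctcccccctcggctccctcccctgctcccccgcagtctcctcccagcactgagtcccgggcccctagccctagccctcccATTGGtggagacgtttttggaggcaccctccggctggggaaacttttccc
None of these 4 motifs lies in the Col15a1 window. The windows of Col4a1 and Col4a2 share 78 bases, because the genes are transcribed away from each other from one short region. RefSeq gave 37 windows for 34 of the 42 collagen genes. GGGCGG was in 59.5% of them and in 35.7% of all 32851 windows, CCAAT in 35.1% and 37.4%, TATAAA in 13.5% and 13.6%, and TGANTCA in 2.70% and 7.81%, the Col6a1 window being the only collagen window with it. These are counts of letters and were not tested.

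Basement membrane collagen was higher in the TAM samples for the chains that these cells made in quantity. Col4a1 and Col4a2, which combine as the common type IV trimer, lie head to head on chr8 (chr8:11198423-11312826 and chr8:11312805-11449287) and overlap by 22 bases. Col4a1 had 5505, 9394 and 3092 normalized counts in EtOH samples and 12658, 29487 and 11874 in TAM samples, and all TAM samples were above all EtOH samples. Its log2 fold change was 1.60 ± 0.50 (SE, adjusted p = 0.253), and it rose in the blocked fit (SE 0.22, adjusted p = 0.0461). Col4a2 had 6025, 9251 and 4324 in EtOH and 18654, 28843 and 15639.99 in TAM samples, again without overlap. Its log2 fold change was 1.71 ± 0.35 (SE, adjusted p = 0.131), and it also rose in the blocked fit (SE 0.19, adjusted p = 0.0321). The pairs differed by 1.20, 1.65 and 1.94 in Col4a1 and by 1.63, 1.64 and 1.85 in Col4a2 on the log2 scale. TAM replicate 2 was the highest of its group in both, and without that sample the log2 fold changes were 1.18 and 1.46. Neither gene was called with the block when pair 1 or pair 3 was left out.

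The other type IV chains were lower in level. Col4a5 (chrX) had 1308, 1584 and 1209 normalized counts in EtOH samples and 1716, 1735 and 899 in TAM samples, with a log2 fold change of 0.03 ± 0.29 (SE, adjusted p = 0.976) and overlapping groups. Col4a6, head to head with Col4a5 at a distance of 1.3 kb, was under 1 c.p.m. throughout, at 1.39, 1.87 and 3.49 in EtOH and 12.4, 10.0 and 7.36 in TAM samples. Col4a3 and Col4a4, another head-to-head pair 71 bases apart and typical of kidney glomeruli, did not exceed 16.2 and 11.8 normalized counts.

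Col7a1 (chr9) encodes the anchoring fibril chain. It had 206, 426 and 151 normalized counts in EtOH samples and 469.7, 1637 and 438 in TAM samples. The groups did not overlap, although the lowest TAM sample was close to the highest EtOH sample. Its log2 fold change was 1.55 ± 0.59 (SE, adjusted p = 0.32), and it rose in the blocked fit (SE 0.21, adjusted p = 0.0451). Without TAM replicate 2, the highest sample, the log2 fold change was 0.93, and Col7a1 was not called with the block when pair 1 or pair 3 was left out. Smooth muscle and pericyte markers were also highest in TAM replicate 2: their summed level over 6 genes was 17814 to 56657 normalized counts in EtOH samples and 27125, 108660.0 and 35239 in TAM samples, mostly from Acta2 (55325, 16500.33 and 28438 in EtOH and 25369, 99588 and 32774 in TAM samples). Of these markers Des was under 1 c.p.m. in every sample, and Myh11 had 227, 94.4 and 163 normalized counts in EtOH and 523, 1568 and 479 in TAM samples (log2 fold change 2.26 ± 0.52 SE, adjusted p = 0.156). The part of these markers in the levels of Col4a1, Col4a2 and Col7a1 was not tested.

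Fibrillar chains of the dermis were lower in TAM samples on average, though none of the major ones was called. Col1a1 had 515277, 568528 and 455064 normalized counts in EtOH samples and 423144, 301342 and 265664 in TAM samples. Col1a2, its partner in type I collagen, had 368914, 346134 and 400068 in EtOH and 255449, 178955 and 226507 in TAM samples. Col3a1, the type III chain, had 506066, 433849 and 628623 in EtOH and 349784, 114898 and 274847 in TAM samples. In all 3 genes every TAM sample lay below every EtOH sample. The log2 fold changes were -0.66 ± 0.48 (SE, adjusted p = 0.606) for Col1a1, -0.77 ± 0.42 (SE, adjusted p = 0.492) for Col1a2 and -1.21 ± 0.57 (SE, adjusted p = 0.424) for Col3a1. Per kb of coding transcript, Col3a1 was first and Col1a1 second among all collagens in EtOH samples, and they changed places in TAM samples. Their order depends on the length used. Over all 6 samples the mean was 71080 for Col1a1 and 69137 for Col3a1 per kb of coding transcript. Per kb of all annotated exon bases it was 64224 and 45833. TAM replicate 2 had the lowest Col3a1, and without it the log2 fold change was -0.74. The same sample had the lowest level of the fibroblast genes Dcn (79944, 75763 and 106514 in EtOH and 27277, 6712 and 25738 in TAM samples, log2 fold change -2.37 ± 0.56 SE, adjusted p = 0.163), Lum (2298, 1039 and 3921 in EtOH and 919, 158 and 452 in TAM samples) and Pdgfra (29889, 26485 and 41206 in EtOH and 17909, 7726 and 26819 in TAM samples). No other fibroblast gene of the list had its lowest level of all 6 samples there. Among the TAM samples alone, Fbln1 was also lowest in that replicate (12554, 9143 and 15292), and Fbn1 and Pdgfrb were neither lowest nor highest. Thy1, Vim, Fn1 and S100a4 were highest of the TAM samples in that replicate, at 4122, 64857, 593949 and 15706 normalized counts. The part of these genes in the Col3a1 result was not tested.

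The chains of type V collagen, which sits in the core of type I fibrils, had fold changes of both signs. Col5a1 had 50789, 41333 and 50011 normalized counts in EtOH samples and 46869.70, 46936 and 33686 in TAM samples, with a log2 fold change of -0.17 ± 0.27 (SE, adjusted p = 0.837) and overlapping groups. Col5a2 had 67358, 46486 and 58876 in EtOH and 126203, 64410.05 and 62819 in TAM samples, with TAM replicate 1 well above the rest and a log2 fold change of 0.49 ± 0.38 (SE, adjusted p = 0.629). Col5a3, the third and least abundant chain, had 1984, 3554 and 2271 in EtOH and 649, 1401 and 782 in TAM samples. Its groups did not overlap and its pairs differed by -1.61, -1.34 and -1.54. The log2 fold change was -1.50 ± 0.34 (SE, adjusted p = 0.157), and Col5a3 fell in the blocked fit (SE 0.16, adjusted p = 0.0291). It was not called with the block when pair 1 or pair 3 was left out.

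Among the minor fibrillar chains, Col27a1 had 132, 109.7 and 120.3 normalized counts in EtOH samples and 441, 170.1 and 260.0 in TAM samples. All TAM samples were above all EtOH samples, and the log2 fold change was 1.16 ± 0.35 (SE, adjusted p = 0.242). Col11a1, which joins type V chains in fibril cores, had a log2 fold change of -1.01 ± 0.53 (SE, adjusted p = 0.473) and pairs of -1.25, -0.68 and -1.11, with an adjusted p of 0.0827 with the block. Col11a2 was at 82.9 to 86.8 normalized counts in EtOH samples and 103 to 126 in TAM samples (log2 fold change 0.43 ± 0.22 SE, adjusted p = 0.449). Col24a1 had a log2 fold change of 0.13 ± 0.45 (SE, adjusted p = 0.934), and its pairs pointed in both directions. Col2a1, the cartilage chain, was under 1 c.p.m. in every sample, at most 2.84 in EtOH and 10.04 in TAM samples.

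Beaded filament collagen was lower in TAM samples in its 3 abundant chains, which assemble together as type VI collagen. Col6a1 had 80788, 95067 and 105146 normalized counts in EtOH samples and 25131, 35365 and 47081 in TAM samples. Col6a2 had 59724, 57848 and 71304 in EtOH and 16780.36, 28868 and 31732 in TAM samples, and Col6a3 had 35309, 37564 and 29042 in EtOH and 17078, 20679 and 19773 in TAM samples. No TAM sample reached an EtOH sample in any of the 3. The log2 fold changes were -1.42 ± 0.33 (SE, adjusted p = 0.16) for Col6a1, -1.33 ± 0.32 (SE, adjusted p = 0.176) for Col6a2 and -0.82 ± 0.23 (SE, adjusted p = 0.217) for Col6a3, with adjusted p of 0.0896, 0.113 and 0.183 with the block, so none was called in either fit. With sample weights estimated by limma, Col6a2 and Col6a3 were called lower, together with Col5a3, Col14a1, Col15a1 and Col18a1, and Col4a1, Col4a2 and Col27a1 were called higher, among 386 genes called higher and 356 lower. Col6a4 was at 5.85 to 26.1 normalized counts (log2 fold change -0.57 ± 0.60 SE, adjusted p = 0.724), and Col6a6 did not exceed 3.05. Col6a2 and Col6a1 are neighbours 85.2 kb apart on chr10, and Col18a1 follows on the same strand 326.0 kb from Col6a1.

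FACIT collagens held chains that differed in opposite directions. Col12a1, the most abundant of them and found on type I fibrils under tension, had 115566, 135511 and 59768 normalized counts in EtOH samples and 255816, 130436 and 176432 in TAM samples. The groups overlapped, since EtOH replicate 2 lay above TAM replicate 2, and the log2 fold change was 0.88 ± 0.47 (SE, adjusted p = 0.476). Col12a1 was 6.31%, 7.51% and 3.16% of collagen counts in EtOH samples and 16.4%, 13.1% and 14.9% in TAM samples, where all TAM samples lay above. These shares also depend on the sum of all collagen counts, whose mean was 1.48-fold lower in TAM samples. Col14a1, a related chain that regulates fibril growth, had 386, 655 and 837 in EtOH and 125, 22.6 and 145 in TAM samples. The groups did not overlap and the log2 fold change was -2.98 ± 0.70 (SE, adjusted p = 0.162), and 0.105 was its adjusted p with the block. Without TAM replicate 2, the lowest sample, it was -2.14 (adjusted p = 0.151). Col16a1 (log2 fold change -0.27 ± 0.22 SE, adjusted p = 0.637), Col20a1 (-0.40 ± 0.68) and Col9a3 (0.43 ± 0.51) had overlapping groups. Col9a1 was listed at 0 in all samples, and Col9a2, Col19a1 and Col22a1 were listed at 0 in all EtOH samples and did not exceed 4.16 in TAM samples.

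The hexagonal network chains were all higher in TAM samples by sign, and none was called. Col8a1, known from vessel walls and the cornea, had 1594, 1730.42 and 2335 normalized counts in EtOH samples and 2289, 5798 and 4030.32 in TAM samples, where the lowest TAM sample lay just below the highest EtOH sample. Its log2 fold change was 1.02 ± 0.35 (SE, adjusted p = 0.283). Col8a2 had 34.9, 126 and 42.4 in EtOH and 228, 177 and 97.8 in TAM samples, with overlap and a log2 fold change of 1.45 ± 0.54 (SE, adjusted p = 0.318). Col10a1, known from hypertrophic cartilage, had 14.7, 13.3 and 15 in EtOH and 29.3, 31.8 and 33.5 in TAM samples, so it was just under 1 c.p.m. in EtOH samples and above it in all TAM samples. Its log2 fold change was 1.08 ± 0.36 (SE, adjusted p = 0.27), and it was tested only because the TAM samples passed the filter on low values. The chondrocyte markers Acan, Comp, Matn1, Matn3 and Hapln1 did not exceed 5.43 normalized counts in any sample. The other chondrocyte marker, Sox9, had 233, 149 and 1027 in EtOH and 84.5, 62.8 and 176 in TAM samples. Its groups overlapped and its log2 fold change was -1.74 ± 0.73 (SE, adjusted p = 0.365).

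Transmembrane collagens were low. Col23a1 had 100.04, 75.3 and 176 normalized counts in EtOH samples and 126, 31.8 and 183 in TAM samples, with overlapping groups and a log2 fold change of -0.28 ± 0.66 (SE, adjusted p = 0.895). Col17a1, which holds keratinocytes to the basement membrane, did not exceed 12.6 in any sample. Col13a1 did not exceed 7.21. Col25a1 was listed at 0 in every EtOH sample and at 6.91, 3.34 and 4.32 in the TAM samples, under 1 c.p.m. throughout. Col28a1, outside these classes, had 9.88, 7.57 and 4.27 normalized counts in EtOH and 174, 14.2 and 22.8 in TAM samples, all TAM samples being higher and TAM replicate 1 far above the others. It reached 1 c.p.m. in 2 samples and was not tested, as was the case for 13 of the 42 genes: Col2a1, Col4a3, Col4a4, Col4a6, Col6a6, Col9a1, Col9a2, Col13a1, Col17a1, Col19a1, Col22a1, Col25a1 and Col28a1.

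Chains that share a trimer were compared as ratios of normalized counts within each sample, with an exact two-sided permutation test whose smallest possible p is 0.1 for 3 samples against 3. Col4a1 stood to Col4a2 as 0.914, 1.02 and 0.715 in EtOH samples and 0.679, 1.02 and 0.759 in TAM samples. The difference was -0.11 on the log2 scale (exact permutation p = 0.8), so the ratio differed by less than the spread between samples while Col4a1 was 3.00-fold and Col4a2 3.22-fold higher in mean level. Col1a1 to Col1a2 was 1.40, 1.64 and 1.14 in EtOH samples and 1.66, 1.68 and 1.17 in TAM samples (difference 0.11, exact permutation p = 0.5). Col6a1 to Col6a2 differed by -0.09 (exact permutation p = 0.6). Within type VI, Col6a1 to Col6a3 was 2.29, 2.53 and 3.62 in EtOH samples and 1.47, 1.71 and 2.38 in TAM samples, a difference of -0.60 (exact permutation p = 0.2) with pairs of -0.64, -0.57 and -0.60. Col5a1 to Col5a2 was 0.754, 0.889 and 0.849 in EtOH samples and 0.371, 0.729 and 0.536 in TAM samples. These groups did not overlap, and the difference of -0.66 had an exact permutation p of 0.1, the smallest possible, and 0.467 after Benjamini-Hochberg adjustment over the 7 ratios tested. Col8a1 to Col8a2 and Col11a1 to Col11a2 differed by -0.45 and -1.45 with overlapping groups (exact permutation p = 0.5 and 0.2). Col4a5 to Col4a6 is given as values only, 346 to 941 in EtOH and 122 to 173 in TAM samples, because Col4a6 was under 1 c.p.m. throughout.

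**Figure D4:**
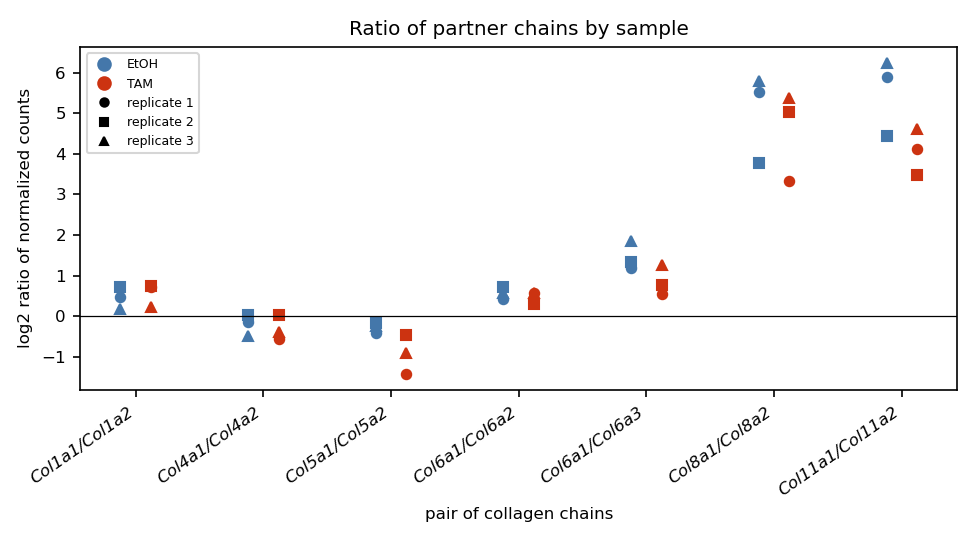
Log2 ratio of the normalized counts of collagen chains that share a trimer, with 1 symbol per sample (shape: replicate number; colour: label). Col1a1/Col1a2, Col4a1/Col4a2 and Col6a1/Col6a2 overlap between the labels, and Col5a1/Col5a2 is lower in all 3 TAM samples.

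Neighbouring collagen genes had fold changes of the same sign in some places and of opposite sign in others. Col3a1 and Col5a2 lie tail to tail 24.6 kb apart on chr1, with log2 fold changes of -1.21 and 0.49. Col9a3 and Col20a1, 364.3 kb apart on one strand of chr2, had 0.43 and -0.40. By contrast the type IV pair on chr8 had 1.60 and 1.71, and Col6a2, Col6a1 and Col18a1 on chr10 had -1.33, -1.42 and -1.54.

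The genes that process collagen were counted in the same fit. Of 19 genes of chain modification and folding, 17 were tested, 7 higher and 10 lower, and none was called. Plod2, the lysyl hydroxylase of the telopeptides, had 3047, 5827 and 5047 normalized counts in EtOH samples and 798, 1005 and 1303 in TAM samples. Its groups did not overlap, its log2 fold change was -2.14 ± 0.30 (SE, adjusted p = 0.0546), and it fell in the blocked fit (adjusted p = 0.0237), also with any 1 pair left out. P3h2 (Leprel1), a prolyl 3-hydroxylase, had the next lowest log2 fold change of this list, -1.99 ± 0.74 (SE, adjusted p = 0.313).

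Of 13 genes of propeptide removal and crosslinking, 11 were tested, 8 higher and 3 lower. Pcolce2, an enhancer of procollagen C-proteinase, had 95.9, 64.8 and 86.7 normalized counts in EtOH samples and 353, 428 and 311 in TAM samples. It rose without overlap, with a log2 fold change of 2.13 ± 0.24 (SE, adjusted p = 0.0374), and 0.037 was its adjusted p with the block, but it was not called when any 1 sample was left out. The related enhancer Pcolce lay the other way, at 19827, 18178 and 20317 in EtOH and 16645, 12625 and 17036 in TAM samples (log2 fold change -0.34 ± 0.22 SE, adjusted p = 0.56). Of the lysyl oxidases, Loxl1, Loxl2, Loxl3 and Loxl4 had every TAM sample above every EtOH sample, with log2 fold changes of 0.60, 0.82, 0.99 and 1.35, and none was called. They were picked after their values were seen, and 9.19% of all tested genes had no overlap in this direction. Lox, the enzyme that gives the family its name, had 64198, 48741 and 55451 in EtOH and 71789, 79866 and 56794 in TAM samples, with overlap and a log2 fold change of 0.30 ± 0.29 (SE, adjusted p = 0.702).

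Of 11 genes of collagen breakdown and uptake, all 11 were tested, 5 higher and 6 lower, and none was called without the block. The collagenases Mmp13 and Mmp8 had no overlap between the groups. Mmp13 had 41.1, 80.1 and 0.74 normalized counts in EtOH and 1042, 1045 and 186 in TAM samples. Mmp8 had 8.28, 1.85 and 1.62 in EtOH and 137, 85.5 and 19.8 in TAM samples. Without the block their log2 fold changes were 5.02 ± 1.44 and 3.94 ± 0.86 (SE, adjusted p = 0.221 and 0.146). Both rose in the blocked fit (adjusted p = 0.0359 and 0.0429). With a pair left out, Mmp13 was still called each time and Mmp8 was not. Mmp8 was under 1 c.p.m. in every EtOH sample, so it was tested only because the TAM samples passed the filter on low values. Mmp2 and Mmp14, far more abundant, overlapped between the groups. In 3 genes of this list every TAM sample lay above every EtOH sample, and in 1, Fap, below. Among all tested genes 9.19% lay above and 11.4% below in this way. Fap had 826, 632 and 836 in EtOH and 495, 190 and 426 in TAM samples (log2 fold change -1.15 ± 0.37 SE, adjusted p = 0.258). The paper reports more FAP protein by staining in tamoxifen-treated MSFs. Of 9 collagen receptor genes, 7 were tested and all 7 were higher by sign, and none was called in either fit. Their median log2 fold change was 0.42, beside -0.03 over all tested genes. Itga2 (1.61 ± 0.69 SE, adjusted p = 0.379) and Itga10 (0.60 ± 0.52 SE, adjusted p = 0.66) were the largest. Itga10 was low, at 8.37 to 32.8 normalized counts. Only Ddr1 had no overlap between the groups (0.42 ± 0.15 SE, adjusted p = 0.291), and Ddr2 was near 0 (0.04 ± 0.24 SE).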

How the data were processed

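RNA-seq was done on poly(A) RNA from 3 TAM and 3 EtOH samples of MSFs. The submitters' processing notes name TopHat, HTSeq and edgeR and the build mm9, with versions not given in the sources used here, and the authors deposited normalized counts for 22162 genes in 1 table. The signal deposited by the authors is not whole numbers and its normalization is not stated in the table, so the planned edgeR test on read counts was not run and the planned test for normalized values, limma, was used. Read totals, and so counting errors, were not used, and precision is that of 3 samples against 3.

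The model was fitted with limma 3.58.1 in R 4.3.3 on log2(value + 1), the prior variance following mean level, for the 11877 genes at 1 c.p.m. or more (16.2 normalized counts) in at least 3 of 6 samples. Fold changes are on that scale, which understates changes of low genes. Benjamini-Hochberg adjustment covered all genes tested, and genes with an adjusted p under 0.05 are referred to as called. Ratios of chains were tested with an exact permutation test in scipy 1.17.1. Tables and figures used Python 3.11.15, pandas 2.3.3 and matplotlib 3.10.9. Levels were compared between genes per kb of the annotated transcript with the longest coding sequence. Promoter windows came from RefSeq.

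Groups are those of the labels. The labels number the samples of each group 1 to 3, and the pairing comes from these numbers alone. The deviations from the group means correlated at 0.24, 0.29 and 0.42 (Pearson, across 11877 genes, which are not independent replicates) in same-numbered samples and at -0.31 to 0.04 in the others. The deviations of a group cancel in each gene, so positive values in same-numbered samples make the others negative on average. The contrast between them is therefore not independent evidence of pairing. Each result was also fitted with replicate number as a block.

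The collagen genes, their classes, the lists of processing genes and the cell type markers were chosen with earlier results of these data known. The text gives values in every sample for collagen genes called with or without the block, the most abundant member of each class per kb, the 6 largest differences in each direction and the main chains of types I, III, IV, V, VI and VIII. From the other lists it names called genes and up to 2 of the largest changes. Cdkn1b, marker genes beside a result, Fap, Ddr1, Ddr2, Pcolce, Lox and the Loxl genes were named after their values were seen. Beyond the lists given with the results, macrophage markers (4 of 6 tested) had 3 higher and 1 lower, smooth muscle and pericyte markers (5 of 6 tested) 4 higher and 1 lower, fibroblast markers 5 higher and 5 lower of 10, keratinocyte markers 0 higher and 2 lower, chondrocyte and Schwann cell markers 1 lower each, and melanocyte markers 2 higher and 1 lower, none of them called in either fit. Mia3 was not analysed here. Alternatives were the block, pseudocounts of 0.1 and 10, library sum and median-ratio scaling, no filter on low values, sample weights and leaving out each sample. Leaving out each pair with the block was added after seeing the data.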

Additional observations from a re-analysis of the deposited data

How the results depend on the processing

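Col15a1 was called lower with each pseudocount, scaling, filter and weighting tried and with the block, and the collagen counts depended mostly on the block and the weights. With the replicate block 119 genes were called higher and 73 lower, of them 3 and 3 collagen genes and 3 (Mmp8 among them) and 1 of the processing genes. With sample weights 386 and 356 genes were called, of them 3 and 6 collagen genes and 3 and 3 processing genes. Without the filter on low values 12 and 5 genes were called, and 11 collagen genes had an unadjusted p under 0.05 and a higher level. The median collagen log2 fold change was then 0.43, beside 0.03 over all genes, since the low members that were otherwise not tested enter it. Leaving out 1 sample gave 0 to 6 genes called higher and 0 to 9 lower, 0 to 1 collagen genes called lower, 3 to 6 higher and 7 to 8 lower collagen genes with unadjusted p under 0.05, and 0 processing genes called. With the block and 1 pair left out, 472, 85 and 52 genes were called higher and 383, 57 and 36 lower without pair 2, 1 and 3, 0 to 5 and 1 to 6 collagen genes, and 1 to 5 and 1 to 3 processing genes. The most, 5 and 6 collagen genes, were called without pair 2. Scaling each library to the same sum moved the median of all genes from -0.03 to 0.08, a shift of 0.11, and turned no collagen gene. With sample weights Col4a5 turned to -0.29, Col20a1 to 0.30 and Col23a1 to 0.28. Leaving out 1 sample moved Col24a1 between -0.32 and 0.48, Col4a5 between -0.13 and 0.35, Col20a1 between -1.05 and 0.060 and Col23a1 between -0.78 and 0.46. With the block and a pair left out, Col5a1 reached 0.034, Col24a1 -0.60, Col4a5 -0.15 and -0.018, Col9a3 -0.18, Col20a1 0.27 and Col23a1 0.19. Of the chain ratios, Col1a1/Col1a2 ranged from -0.029 to 0.28, Col4a1/Col4a2 from -0.28 to 0.014, Col6a1/Col6a2 from -0.16 to 0.0050 and Col8a1/Col8a2 from -1.07 to 0.17 with 1 sample left out, and the paired test of the same ratios cannot give a p under 0.25. Causes of these changes were not tested. Read depth was not used, and the 13 collagen genes not tested are given as values only.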
